A study of Mus musculus with 6 samples.

Results

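Granule cells are the most numerous neurons of the cerebellum, and the genes described here mark their lineage from the first progenitors to the young neurons. They were chosen by name: *Atoh1*, *Barhl1*, *Zic1*, *Zic2*, *Meis1*, *Pax6*, *Neurod1*, *Nhlh1* and *Cntn2*, read on every probe that carried one of these names on the array. These 9 genes had 15 probes, of 34797 gene names and 55681 probes on the array. The study compared pups of C57BL/6J dams that ate a custom amino acid-based AIN-93G diet with folic acid (FA) at 2 mg or 20 mg per kg, from 1 week before mating through the pregnancy. RNA from the cerebellum of pups at postnatal day 1 (P1) was pooled from 3 pups of 1 sex, each from a different dam, and each pool was read on 1 single-colour Agilent array. There was 1 female pool and 1 male pool at 2 mg, and there were 2 female and 2 male pools at 20 mg, 6 arrays in all. At 20 mg the extraction was repeated on a different batch of pups, and the labels do not tie a replicate number to that batch. The sample titles name the cerebellum, whereas the tissue field of the same labels reads whole brain.

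Granule cell progenitors arise in the rhombic lip, a strip at the edge of the developing hindbrain, under the transcription factor Atoh1, and spread over the surface of the cerebellum to form the external granular layer. There they divide in response to Sonic hedgehog from Purkinje cells, a division that in the mouse is under way at birth and lasts through the early postnatal weeks. Cells that leave the cycle switch on Neurod1, Nhlh1 and Cntn2 in the deeper part of this layer, extend parallel fibres and then migrate inward past the Purkinje cells.

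The probes of the array are single strands of 60 bases. The sequences of 5 probes in coding sequence are shown because probes to the same gene gave different answers and because readings on some arrays varied with the base composition of the probes. G and C are in capitals, so the richer a probe is in these bases, the more capitals it holds. Each is printed 5′ to 3′ as deposited, with its position in the mouse build mm9.
Zic1 second probe: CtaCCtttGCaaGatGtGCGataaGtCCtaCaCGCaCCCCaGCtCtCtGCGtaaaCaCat
Neurod1 brightest probe: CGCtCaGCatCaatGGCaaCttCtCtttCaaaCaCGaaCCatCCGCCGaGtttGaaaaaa
Pax6 brightest probe: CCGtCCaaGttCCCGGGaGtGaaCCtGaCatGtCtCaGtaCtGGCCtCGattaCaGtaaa
Pax6 second probe: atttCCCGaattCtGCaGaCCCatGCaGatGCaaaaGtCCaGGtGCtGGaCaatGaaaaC
Cntn2 brightest probe: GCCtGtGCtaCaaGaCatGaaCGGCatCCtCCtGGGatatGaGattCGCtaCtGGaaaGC

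The *Zic1* probe (chr9:91257301-91257360, minus strand) lies in the part that codes for zinc fingers, and the *Neurod1* probe (chr2:79294309-79294368, minus strand) in the part that codes for the carboxyl end of the protein. The brightest *Pax6* probe (chr2:105536454-105536513, plus strand) covers the last codons and the stop codon. The second *Pax6* probe is split over chr2:105524098-105524949 (plus strand) and reads across a splice junction into an alternative exon of the paired domain, which only some *Pax6* transcripts carry. The *Cntn2* probe is split over chr1:134413648-134414916 (minus strand), in the part that codes for fibronectin repeats. G and C made up 50% of the bases of this *Zic1* probe, 45% of the *Neurod1* probe, 51.7% and 46.7% of the *Pax6* probes and 51.7% of the *Cntn2* probe. Over the 15 probes the share ran from 23.3% to 55.0%.

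Levels are log2 of the background-subtracted signal after quantile normalization, which gives every array the same set of values. The level of a gene is that of its brightest probe by the mean over the 6 arrays, and levels are compared between arrays for 1 probe, never between probes. A probe was called well above background by the scanner software. The array of female 20 mg replicate 2 stood apart from the others: 23.3% of its probes were well above background against 51.1% to 71.9% on the other 5 arrays, its median signal was 5.14 against 39.0 to 162, and its rank correlations with the other arrays were 0.696 to 0.717, while those among the other 5 arrays were 0.830 to 0.983. Results are therefore given with and without it. It was scanned on the earlier of 2 days and on the same slide as male 20 mg replicate 1, while both 2 mg arrays and female 20 mg replicate 1 shared another slide. Both 2 mg arrays were scanned on the later day. Of the 9 genes, all were well above background on each of the other 5 arrays, and 4 (*Barhl1*, *Zic1*, *Zic2* and *Meis1*) were so on female 20 mg replicate 2. The lineage was therefore measured on every array but this one, where *Atoh1*, *Pax6*, *Neurod1*, *Nhlh1* and *Cntn2* had values without a signal well above background. The lowest level of any probe well above background on that array was 8.82, so the order of lower levels there is not measured.

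None of the 9 genes differed between the FA doses in the limma test over all probes. The male and female differences were fitted together on 4 groups of sex and dose. No gene passed an adjusted p of 0.05 for the difference over both sexes, in males, in females or for the interaction of dose and sex, and 0 of the 9 had an unadjusted p under 0.05 in any of these. Over the 37211 probes tested the share called was 0% in each of these 4 contrasts, and 145, 74, 161 and 51 probes had an unadjusted p under 0.05. The smallest unadjusted p of a member over both sexes was 0.33 (*Zic1*, limma, adjusted p = 1.0). Each sex had a single array at 2 mg, so the spread came from the 2 pairs of 20 mg arrays, with 2 residual degrees of freedom, and the SE of a member's difference over both sexes ran from 0.65 to 1.45 on the log2 scale. The extraction at 20 mg was repeated on a different batch of pups, so this spread is between pools. The 2 arrays of a sex at 20 mg also differed in slide and scan day, so the spread holds these differences as well. It includes female 20 mg replicate 2, the array that stood apart.

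The fold rule of the study, a mean difference of at least 2.5-fold within a sex, took none of the 9 genes in either sex when each was read by its brightest probe. The second probes of *Barhl1* and *Neurod1* passed it, lower in females, so 2 of the 15 probes passed in females and 0 in males. Beside this, 4.19% of all probes tested were lower and 2.21% higher past 2.5-fold in males, and 17.3% were lower and 7.12% higher in females. Without female 20 mg replicate 2 the shares were 5.62% and 3.02% in males and 3.58% and 2.8% in females, and none of the 15 probes passed. The median male difference of the 9 genes was 0.25, with 7 of 9 above 0, against -0.04 over all probes. The median female difference was 0.29, with 5 of 9 above 0, against -0.21. On female 20 mg replicate 1 alone the female median was -0.31, with 3 of 9 above 0, against 0.03 over all probes. In absolute size the male differences had a median of 0.39 against 0.43 over all probes, and the female differences 0.71 against 0.74. Between replicates at 20 mg, the absolute difference over the 9 genes had a median of 0.93 in males and 1.04 in females. For 7 of the 9 genes in males and 6 in females the dose difference was smaller than the gap between the 2 arrays at 20 mg. In these pools, fewer cells of the lineage and less RNA per cell cannot be told apart.

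**Figure D1:**
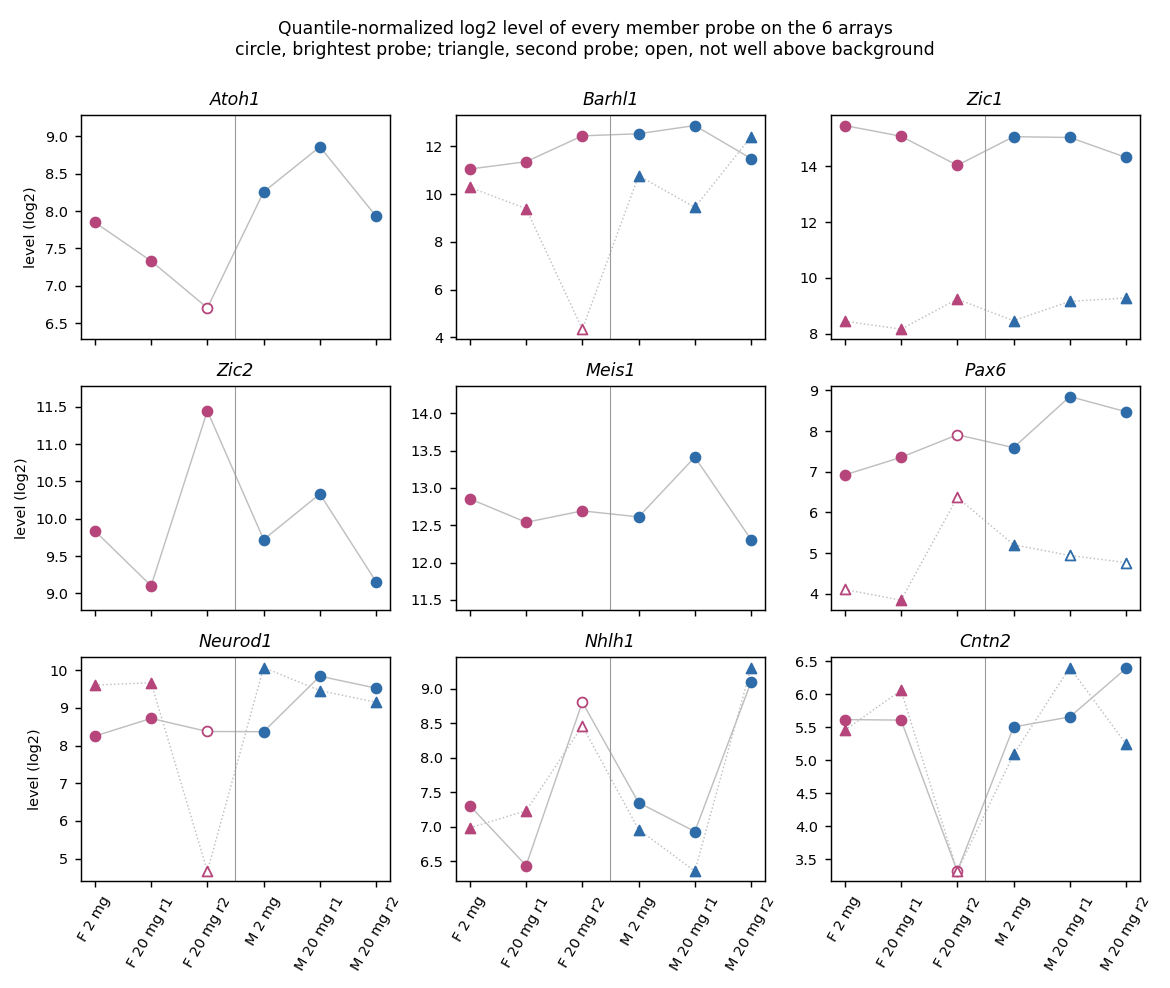
Quantile-normalized log2 level (vertical axis) of each gene on the 6 arrays (horizontal axis; F, female; M, male; r, replicate), pink for female and blue for male pools. Circles are the brightest probe, triangles the second probe where there is one, and open symbols were not well above background. *Neurod1* circles at 20 mg lie above both 2 mg circles, by less than the width of a symbol for female 20 mg replicate 2, where the circle is open, and the triangles of *Barhl1* and *Neurod1* drop to 4.34 and 4.67 on that array.

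*Atoh1*, the helix-loop-helix factor that starts the lineage, was read by 1 probe (chr6:64681161-64681220, plus strand, 28.3% G and C). Its level was 7.85 in the female 2 mg pool and 7.33 and 6.70 in the female 20 mg pools, the last not well above background. In males it was 8.26 at 2 mg and 8.86 and 7.93 at 20 mg. Female 20 mg replicate 1 was below the female 2 mg pool, and the place of replicate 2 is not measured. The male 20 mg pools lay on either side of theirs. The difference over both sexes was -0.35 ± 1.36 (SE, limma, adjusted p = 1.0), and it was -0.21 without female 20 mg replicate 2.

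*Barhl1*, a homeobox gene of rhombic lip derivatives, had 2 probes that are separated by 13 bases on chromosome 2. The brightest (chr2:28763253-28763312, minus strand) read 11.05 in the female 2 mg pool, 11.36 and 12.44 in the female 20 mg pools, 12.53 in the male 2 mg pool, and 12.88 and 11.49 in the male 20 mg pools. The female 20 mg pools were higher than the female 2 mg pool, by 0.85 on average, and the male 20 mg pools were on either side of theirs. The second probe (chr2:28763200-28763239, minus strand, where the file places 40 of its 60 bases) read 10.28, 9.39 and 4.34 in females and 10.77, 9.44 and 12.40 in males, in the same order. It went against its neighbour on each 20 mg array, with no signal well above background on female 20 mg replicate 2: on male 20 mg replicate 2 it was 1.63 above the male 2 mg array where the brightest probe was 1.04 below it. The probes differ in composition, with 35% G and C in the brightest and 55.0% in the second. The female difference of the second probe was -3.41, past 2.5-fold, and rests on female 20 mg replicate 2, where the probe was not well above background. Without that array it was -0.86. The brightest probe gave 0.25 ± 0.75 over both sexes (SE, limma, adjusted p = 1.0) and -0.02 without that array.

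*Zic1* and *Zic2*, zinc finger factors of granule cell precursors, were well above background on all 6 arrays. The brightest *Zic1* probe (chr9:91255425-91255484, minus strand) read 15.47 in the female 2 mg pool and 15.08 and 14.04 in the female 20 mg pools. In males it read 15.07 at 2 mg and 15.04 and 14.32 at 20 mg. All 4 of the 20 mg arrays were below the 2 mg array of their sex, by 0.03 to 1.43, and *Zic1* was the only one of the 9 genes with this order. The female replicate 1 level was nevertheless above the male 2 mg level, so the doses overlapped. The difference over both sexes was -0.65 ± 0.65 (SE, limma, adjusted p = 1.0), and -0.35 without female 20 mg replicate 2. The zinc finger probe of *Zic1* printed above did not follow: it read 8.44, 8.16 and 9.24 in females and 8.46, 9.16 and 9.28 in males, higher than the own-sex 2 mg array on 3 of the 4 arrays at 20 mg.

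*Zic2* (chr14:122879296-122879355, plus strand, 35% G and C) read 9.84 in the female 2 mg pool and 9.10 and 11.45 in the female 20 mg pools. In males it read 9.72 at 2 mg and 10.33 and 9.16 at 20 mg. In each sex 1 of the 20 mg pools was higher and 1 lower than the 2 mg pool. The 2 higher ones were those scanned on the earlier day. The difference over both sexes was 0.23 ± 0.97 (SE, limma, adjusted p = 1.0), and -0.35 without female 20 mg replicate 2. It was -0.65 with scan day as a block and -0.63 over the 4 arrays of the later day alone. Both arrays of the earlier day were at 20 mg, so with the block the dose difference rests on the same 4 arrays. These 2 values are therefore not separate checks.

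*Meis1*, a homeobox gene active in granule cells and their precursors, had 1 probe (chr11:18780695-18780754, minus strand) that was well above background on all 6 arrays. It read 12.85, 12.54 and 12.69 in the female pools at 2 mg and 20 mg, and 12.61, 13.41 and 12.31 in the male pools. The female 20 mg pools differed by 0.15 and lay just below the 2 mg pool, and the male ones enclosed theirs. The difference over both sexes was 0.01 ± 0.69 (SE, limma, adjusted p = 1.0), the nearest to 0 of the 9 genes, and it was -0.31 with scan day as a block.

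*Pax6* and *Neurod1*, genes of the step from dividing to differentiating cells, had higher readings on every 20 mg array than on the 2 mg array of the same sex, but on female 20 mg replicate 2 neither was well above background, so the order was measured on 3 arrays. *Pax6* is a paired homeobox factor of the external granular layer, and its brightest probe, over the stop codon, read 6.92 in the female 2 mg pool, 7.35 and 7.91 in the female 20 mg pools, 7.59 in the male 2 mg pool, and 8.85 and 8.47 in the male 20 mg pools. The differences from the own-sex 2 mg array were 0.43 and 0.99 in females, the second of them not well above background, and 1.25 and 0.88 in males. The male 2 mg level was above that of female 20 mg replicate 1, so the doses overlapped, while within males they did not. The mean male difference of 1.07 was a 2.10-fold higher signal. Over both sexes the difference was 0.89 ± 1.34 (SE, limma, adjusted p = 1.0), 0.79 without female 20 mg replicate 2 and 0.67 within the later scan day.

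The second *Pax6* probe, over the alternative exon, was well above background on only 2 arrays, those of female 20 mg replicate 1 and the male 2 mg pool. It read 4.11, 3.85 and 6.37 in females and 5.21, 4.94 and 4.77 in males. On neither male 20 mg array was the probe well above background. The lowest levels well above background there, 5.01 and 4.79, were taken as limits. The male 2 mg pool was at least 1.24-fold above the mean of these limits. The male readings of the probe of the alternative exon thus had the opposite order to those of the probe over the stop codon, at signals near the limit of detection.

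*Neurod1*, the helix-loop-helix factor that drives granule cell differentiation, was the only one of the 9 genes whose 20 mg readings all lay above both 2 mg levels on its brightest probe. Its brightest probe read 8.25 in the female 2 mg pool, 8.72 and 8.37 in the female 20 mg pools, 8.37 in the male 2 mg pool, and 9.84 and 9.52 in the male 20 mg pools. The 2 male 20 mg pools stood clear of the other 4 arrays, and female 20 mg replicate 2, with an unscaled signal of 14.1 that was not well above background, was level with the male 2 mg pool. Among all probes tested, 3.75% had every 20 mg array above both 2 mg arrays and 4.59% had every one below them. Without female 20 mg replicate 2 these shares were 8.04% and 7.03%, and on the same probes *Neurod1* was the only member. The male difference was 1.31, or 2.485-fold, just short of the fold rule, and the female difference was 0.29. Over both sexes it was 0.80 ± 1.10 (SE, limma, adjusted p = 1.0), 0.90 without female 20 mg replicate 2, and 0.80 within the later scan day. With normexp background correction it was 0.27, the female difference was -0.52 and the doses overlapped.

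The second *Neurod1* probe (chr2:79293621-79293680, minus strand, 23.3% G and C) lies 628 bases away and did not show this. It read 9.60, 9.66 and 4.67 in females and 10.07, 9.46 and 9.15 in males. Both male 20 mg arrays were below the male 2 mg array, by 0.61 and 0.92, where the coding probe was above it by 1.47 and 1.16. The female difference of -2.43 rests on female 20 mg replicate 2, where the probe was not well above background, and was 0.06 without it. This second probe was the brighter of the 2 on the female 2 mg and male 2 mg arrays and on female 20 mg replicate 1, so that the choice of the coding probe for the gene rested on female 20 mg replicate 2. Over the other 5 arrays the second probe was the brighter, with overlapping doses and a difference over both sexes of -0.34, so the order seen on the coding probe without that array is not independent of it. With both probes averaged, the difference of *Neurod1* over both sexes was -0.40 and the doses overlapped.

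*Nhlh1*, a helix-loop-helix gene of granule cells that have just left the cycle, had 2 probes that moved in the same direction on 3 of the 4 arrays at 20 mg. The brightest (chr1:173982907-173982966, minus strand, 35% G and C) read 7.31, 6.44 and 8.81 in females and 7.35, 6.93 and 9.10 in males. The second (chr1:173987638-173987697, minus strand, 46.7% G and C) read 6.98, 7.23 and 8.46 in females and 6.96, 6.36 and 9.31 in males. Male 20 mg replicate 2 was the highest array on both probes, and male replicate 1 was below the male 2 mg level. On female 20 mg replicate 2 neither probe was well above background, so its place among the female arrays is not measured. On male 20 mg replicate 2, where both probes were well above background, the brightest was 1.75 and the second 2.35 above the male 2 mg array. The difference over both sexes of the brightest probe was 0.49 ± 1.45 (SE, limma, adjusted p = 1.0), the largest SE of the 9 genes, and it was -0.13 without female 20 mg replicate 2.

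*Cntn2*, the adhesion protein of young granule cells and their parallel fibres, was dim on every array, with an unscaled signal on its brightest probe of 42.0 to 159 on 5 arrays and 4.16 on female 20 mg replicate 2. The brightest probe read 5.62, 5.61 and 3.32 in females and 5.51, 5.66 and 6.39 in males, and the value 3.32 is the floor, on an array where neither probe was well above background. Both male 20 mg pools were above the male 2 mg pool, by 0.15 and 0.89, and both female ones were below the female 2 mg pool, by 0.01 and 2.30. The second probe (chr1:134406280-134406339, minus strand, 35% G and C) read 5.46, 6.06 and 3.32 in females and 5.09, 6.40 and 5.25 in males, higher than its own-sex 2 mg array on 3 of the 4 arrays. The difference over both sexes was -0.32 ± 1.30 (SE, limma, adjusted p = 1.0) for the brightest probe and 0.30 without female 20 mg replicate 2.

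**Figure D2:**
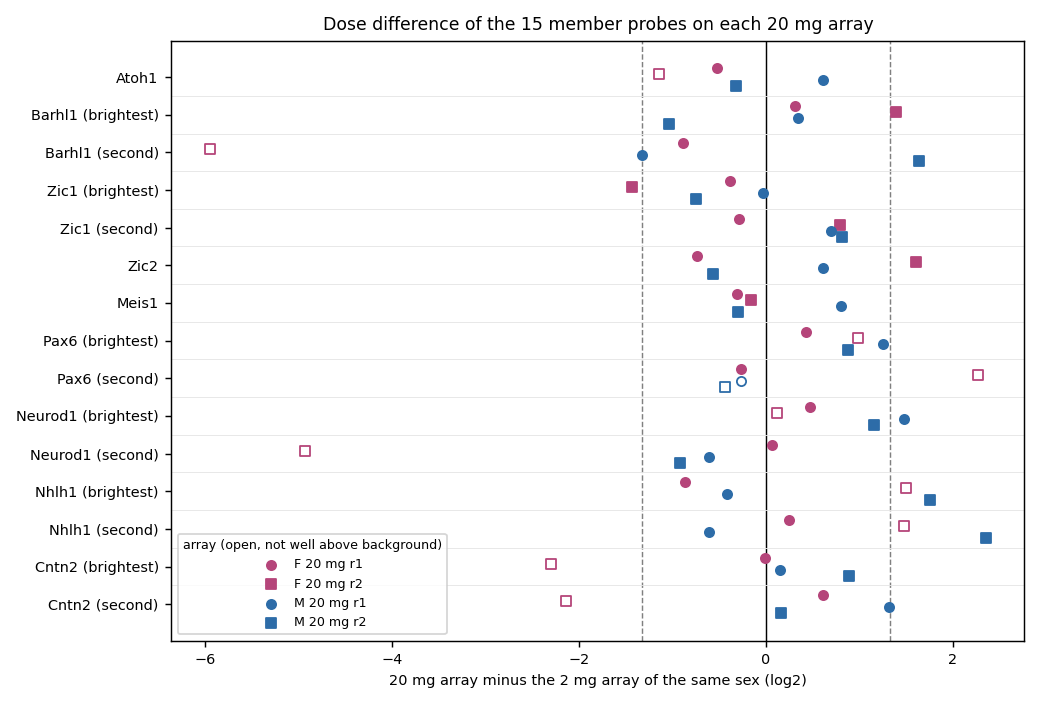
Level on each 20 mg array minus that on the 2 mg array of the same sex (horizontal axis, log2) for the 15 probes (vertical axis), with circles for replicate 1, squares for replicate 2, pink for female and blue for male pools, and open symbols where the probe was not well above background. Dashed lines mark 2.5-fold. The 2 lowest points are the second probes of *Barhl1* and *Neurod1* on female 20 mg replicate 2, at -5.94 and -4.93.

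Of the 9 genes, 6 had 2 probes, and the direction of the difference from the own-sex 2 mg array was the same for both probes in 9 of 24 pairs of readings. By array it was 2 of 6 genes on female 20 mg replicate 1, 3 on replicate 2, and 2 on each male array. Over the 7547 genes with at least 2 tested probes, the 2 brightest probes had the same direction for 64.2%, 58.3%, 60.7% and 65.2% of genes on the same 4 arrays. Probes of 1 gene share its pool and array, so these counts describe the arrays and not the conditions.

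Base composition moved with the readings of the 20 mg arrays, with the strongest straight-line correlation on male 20 mg replicate 2. On male 20 mg replicate 2, the deviation of the 15 probes from the mean of the 2 mg arrays had a correlation of 0.679 with their share of G and C, and over all 37211 probes the correlation was 0.451. On the other 3 arrays at 20 mg the correlations ran from -0.043 to 0.069 over the 15 probes and from -0.124 to 0.106 over all probes. Medians over all probes in steps of 5% were not flat on these. On female 20 mg replicate 1 the median deviation was 0.17 at 20% to 25% and -0.35 at 65% to 70%. On female 20 mg replicate 2 the median deviation was -2.23 at 20% to 25% and -0.27 at 50% to 55%, and the member probes with at most 35% and at least 45% had medians of -0.63 and 0.65. On male 20 mg replicate 1 it was -1.56 at 20% to 25%, 0.21 at 40% to 45% and -0.94 at 65% to 70%. On male 20 mg replicate 2, the 8 member probes with at most 35% G and C had a median deviation of -0.36 and the 7 with at least 45% one of 1.21. The first set holds the brightest probes of *Atoh1*, *Barhl1*, *Zic1*, *Zic2*, *Meis1* and *Nhlh1*, and the second those of *Neurod1*, *Pax6* and *Cntn2*. *Neurod1*, *Pax6* and *Cntn2* were also the 3 genes with higher readings on both male 20 mg arrays than on the male 2 mg array. On male 20 mg replicate 1, where the median over all probes was 0.15 at 45% to 50% and 0.06 at 50% to 55%, *Neurod1* and *Pax6* were above the male 2 mg array by 1.47 and 1.25 and *Cntn2* by 0.15. With the trend on composition removed from each array, a step chosen after seeing the data, the male difference was 1.26 for *Neurod1*, 0.87 for *Pax6* and 0.85 for *Atoh1*, which had been 0.14, and the difference of *Atoh1* over both sexes turned from -0.35 to 0.29. The part of composition in these differences was not otherwise tested.

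**Figure D3:**
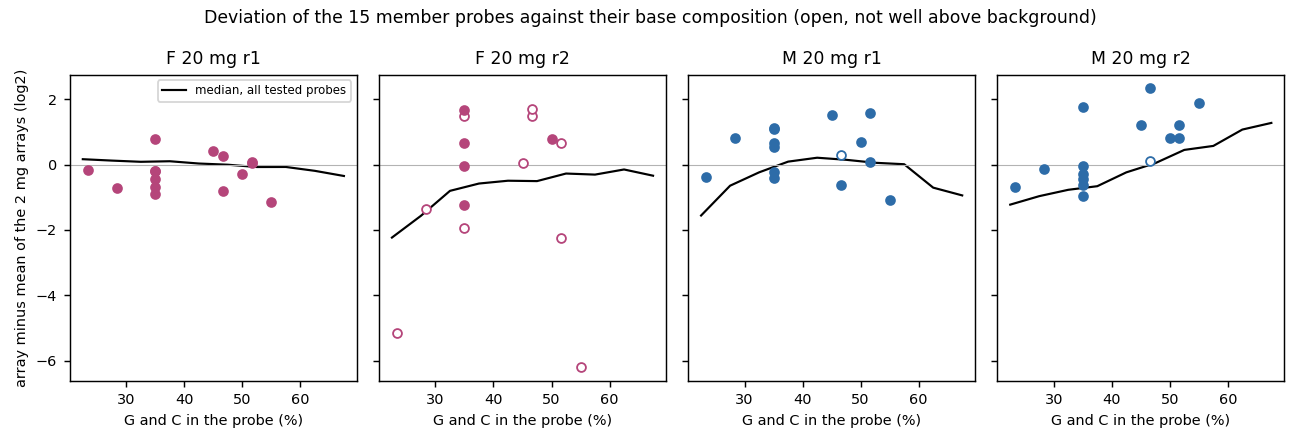
Level on each 20 mg array minus the mean of the 2 mg arrays (vertical axis, log2) against the share of G and C in the probe (horizontal axis, %), with the 15 member probes as points, open where not well above background, and the median over all tested probes in steps of 5% as a line. The line climbs from left to right on male 20 mg replicate 2, from -1.22 to 1.28, and the member probes climb with it, while on female 20 mg replicate 2 and male 20 mg replicate 1 it is lowest at the left.

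The pathway around these genes was read from 3 further lists: 16 genes of progenitors and Sonic hedgehog signalling (such as *Gli1*, *Ptch1* and *Mycn*), 17 of differentiating cells (such as *Neurod2*, *Nfix* and *Dcx*) and 9 of mature granule cells (such as *Cbln1* and *Etv1*). Of these 42 genes 40 were tested, and limma called none in any of the 4 contrasts. By the fold rule 1 was lower and 2 were higher in males, and 9 were lower and 1 higher in females. Over all probes the shares were 4.19% and 2.21% in males and 17.3% and 7.12% in females. Without female 20 mg replicate 2, 2 were lower and 1 higher in females, beside shares over all probes of 3.58% and 2.8%. The 6 genes of the progenitor list among the 9 were all lost with that array. The markers of late granule cells *Gabra6* and *Cbln3*, a GABA receptor subunit and a secreted synaptic protein, were not tested, as fewer than 2 arrays had them well above background.

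Single genes of these lists passed 2.5-fold on both 20 mg arrays of a sex. *Ptch1*, the Sonic hedgehog receptor, read 8.78 in the male 2 mg pool and 5.92 and 6.52 in the male 20 mg pools, a difference of -2.56 ± 2.37 (SE, limma, adjusted p = 1.0). Its other probe did not show it, with a male difference of 0.47. *Nfix*, a nuclear factor I gene of granule cell maturation, read 9.41 in the male 2 mg pool and 11.55 and 11.16 in the male 20 mg pools, a difference of 1.94, and its other probe gave 1.16. In females the first *Nfix* probe was lower at 20 mg than at 2 mg, 9.70 and 9.60 against 10.71. The other probe went the opposite way on female 20 mg replicate 1, with 11.38 against 10.67 at 2 mg. On replicate 2 it read 3.56, where it was not well above background.

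*Nfia*, of the same family, read 9.01 in the female 2 mg pool and 7.23 and 3.32 in the female 20 mg pools, and its other probe had a female difference of -1.06. *Fat2*, a protocadherin of granule cells, read 8.61 and then 6.66 and 3.32. The value 3.32 is the floor, on female 20 mg replicate 2, where neither was well above background. Without that array the female differences were -1.86 for *Nfia* and -2.07 for *Fat2*, each on 1 array against 1.

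**Figure D4:**
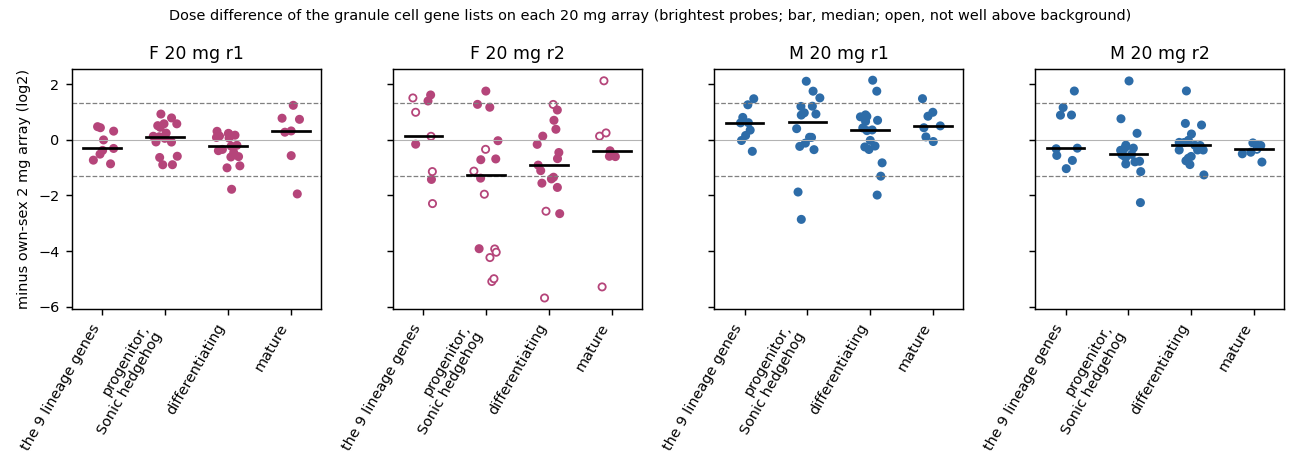
Level minus that of the own-sex 2 mg array (vertical axis, log2) on each 20 mg array for the 9 lineage genes and the 3 further granule cell lists (horizontal axis), 1 point per gene by its brightest probe, open where not well above background, with the median as a bar and 2.5-fold as dashed lines. The points below -3 are all on female 20 mg replicate 2, and the medians of all 4 lists were above 0 on male 20 mg replicate 1 and below 0 on male 20 mg replicate 2.

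Markers of other cells and regions were read from 10 lists, for Purkinje cells, GABA interneurons, astroglia, oligodendrocytes, choroid plexus, meninges, red blood cells, microglia, forebrain and brainstem. Of their 68 genes 67 were tested, and limma called none in any contrast. By the fold rule 2 were lower and 3 higher in males, and 10 were lower and 6 higher in females, beside shares over all probes of 4.19%, 2.21%, 17.3% and 7.12% in the same order. Without female 20 mg replicate 2 the counts were 3 and 3 in males and 1 and 8 in females. The shares over all probes were then 5.62% and 3.02% in males and 3.58% and 2.8% in females. *Gfap*, the intermediate filament of astrocytes, read 7.24 in the male 2 mg pool and was 1.84 and 1.76 above it in the male 20 mg pools. Another of its probes read 7.05 in the male 2 mg pool and 8.45 and 7.28 in the male 20 mg pools. In females the brightest *Gfap* probe read 8.84 at 2 mg and 7.92 and 8.58 at 20 mg, the last not well above background. The 6 astroglia markers had a median of -0.10 on male 20 mg replicate 2, with genes on either side of the male 2 mg array. On male 20 mg replicate 1 the 9 genes had a median of 0.60 above the male 2 mg array, against 0.09 over all probes. There the 10 forebrain markers had 1.31, 6 astroglia markers 0.91, choroid plexus markers 0.77 and 6 markers of GABA interneurons 0.68. Medians of the other lists were 0.44 for microglia and for oligodendrocytes, 0.32 for red blood cells and 0.12 for Purkinje cells. Those of meninges and brainstem were -0.02 and -0.06. On female 20 mg replicate 1 the 9 genes had a median of -0.31, the forebrain markers 0.77 and the 10 Purkinje cell markers 0.15. Of the 10 forebrain markers all were well above background on both 2 mg arrays and on female 20 mg replicate 1, 9 on male 20 mg replicate 1, 6 on male 20 mg replicate 2 and 1 on female 20 mg replicate 2. The log2 of the summed signal of the 10 markers was 13.32, 14.36 and 11.62 in females and 12.71, 13.68 and 11.93 in males.

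Choroid plexus markers differed between the female pools. All 6 were tested, and 5 (*Ttr*, *Clic6*, *Folr1*, *Aqp1* and *Kcnj13*) were higher past 2.5-fold on both female 20 mg arrays than in the female 2 mg pool, and 5 also passed without female 20 mg replicate 2. The log2 of the summed signal of the 6 was 11.57 in that pool, 16.23 and 14.80 in the female 20 mg pools, 14.37 in the male 2 mg pool, and 15.38 and 15.35 in the male 20 mg pools. For the 9 lineage genes the same sum was 15.79, 15.45 and 15.01 in females and 15.56, 15.76 and 14.92 in males. The part of the amount of forebrain or choroid plexus in a pool in the readings of the lineage genes was not tested.

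The genes whose pattern over the 6 arrays was most like the mean centred profile of the 9 were *Dnlz*, *Dpp3*, *Pfkl*, *Ablim3* and *Rrm1*, with Pearson r of 0.983 to 0.958 among 12722 genes searched. That profile was lowest on female 20 mg replicate 1, at -0.38, and highest on male 20 mg replicate 1, at 0.53. The members themselves ran from -0.115 (*Zic1*) to 0.878 (*Pax6*) against it, so it describes *Pax6*, *Neurod1* (0.816) and *Atoh1* (0.756) far better than the *Zic* genes. Over the 5 arrays without female 20 mg replicate 2 the nearest were *Lasp1*, *Aldh1l1*, *Plod3* and *Dus1l*, with r of 0.999 to 0.991, and none of these was among the genes named from the first search. The points of each correlation are 6 or 5 arrays with the scan days and slides given above.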

How the data were processed

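RNA of 6 cerebellum pools was read on single-colour SurePrint G3 mouse arrays. The authors deposited the scanner output of Agilent Feature Extraction (version 10.7.3.1 in the submitters' notes), in which each spot has an intensity, raw and background-subtracted, and flags for saturation, outliers and signal well above background. The deposited value table of the same arrays holds log2 values, normalized by the authors, and served as an alternative. After the methods of the study, the processed intensities were set on the log2 scale without outlier spots, spots of a probe were averaged, the 6 arrays were quantile normalized, and values under 10 were raised to 10. Member spots had no outlier flag, and no spot was saturated. Probes well above background on at least 2 arrays entered limma (version 3.58.1, R 4.3.3; 4 groups of sex and dose, trended prior), with Benjamini-Hochberg adjustment over all 37211 and a threshold of 0.05. The number of arrays limits the precision. The fold rule of 2.5 was applied to group means within a sex, without the variation filter of the study.

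Positions are those the files give in mm9, and no annotation of that build was used. All members matched the RefSeq gene table by symbol. The 3 further granule cell lists and the marker lists were taken from general knowledge. Named among the granule cell lists were genes past 2.5-fold on every 20 mg array of a sex, at most 4 per list, and the marker genes named met the same condition but were picked after their values were seen. The members and the lists were chosen with earlier results of these data known. Alternatives were another scaling, background correction, floor, filter or probe rule, the authors' table, scan day, slide, a replicate block and leaving out each array. The procedure was tested on simulated data. Some single-gene values are not reported here.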

Additional observations from a re-analysis of the deposited data

Results flagged for a closer look

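*Cntn2* was flagged because the female and male pools moved opposite ways: on its brightest probe both female 20 mg arrays were below the female 2 mg array and both male 20 mg arrays were above the male 2 mg array. The female minus male dose difference was -1.67 on the log2 scale (limma interaction, adjusted p = 1.0). One female array differed from the 2 mg array by only 0.01, the other was at the floor and not well above background, and the second probe of the gene was higher on female 20 mg replicate 1 than in the female 2 mg pool.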

How the results depend on the processing

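No member was called by limma in any contrast under any alternative that could be fitted, and the smallest adjusted p of a member was 0.586 (limma, females, without female 20 mg replicate 1). Members past 2.5-fold in males numbered 1 (*Nhlh1*) over the later scan day alone, and 0 to 1 when 1 array was left out (*Nhlh1* without male 20 mg replicate 1, *Neurod1* without replicate 2). Beside this, 10.6% of all probes were lower and 10.9% higher in males over the later day. The shares were 7.71% and 9.27% without male 20 mg replicate 1, and 13.4% and 6.40% without replicate 2. Members past 2.5-fold in females numbered 1 with the floor set before normalization and 1 in the authors' table (*Atoh1* in both). When 1 array was left out they numbered 0 to 5, the 5 (*Barhl1*, *Zic1*, *Zic2*, *Cntn2* and *Nhlh1*) without female 20 mg replicate 1. In that setting 32.3% of all probes were lower and 18.2% higher in females. It rests on female 20 mg replicate 2, where *Cntn2* and *Nhlh1* were not well above background. The shares were 20.7% and 5.33% with the floor set first, and 16.6% and 5.35% in the authors' table. Members whose doses did not overlap numbered 2 with a 75th percentile shift, 0 with normexp, 0 in the authors' table and 0 with all probes averaged. They numbered 3 over the later scan day and 5 on slide 1 alone (female 20 mg replicate 1 against the 2 mg arrays, no test). When 1 array was left out they numbered 1 to 3, the 3 (*Zic1*, *Pax6* and *Neurod1*) without female 20 mg replicate 1. Over all probes 41.9% were above and 37.6% below on slide 1, and 11.6% above and 14.6% below over the later day. Without female 20 mg replicate 1 the shares were 8.14% above and 11.8% below, and with the 75th percentile shift 4.87% and 3.17%. They were 3.77% and 4.76% with normexp, 2.75% and 5.09% in the authors' table, and 3.49% and 4.83% with all probes averaged. With another 20 mg array left out they ran from 5.02% to 11.0% above and from 7.03% to 13.8% below. Signs over both sexes turned as follows. *Cntn2* was 0.46 with the 75th percentile shift, 0.19 with normexp, 0.44 with scan day as a block and 0.48 within the later day. *Zic2* was -0.23 in the authors' table, -0.65 with the scan day block and -0.63 within the later day. *Barhl1* was -0.69 with all probes averaged, -0.37 with the scan day block and -0.36 within the later day, *Neurod1* -0.40 with all probes averaged (0.27 with normexp, and -0.52 in females alone), and *Meis1* -0.31 and -0.30 with the block and within the later day. *Atoh1* was 0.29 with the composition trend removed. Leaving out 1 array gave ranges of -0.35 to 0.86 for *Barhl1*, -0.35 to 0.82 for *Zic2*, -0.28 to 0.28 for *Meis1*, -1.03 to 0.51 for *Cntn2*, -0.13 to 1.06 for *Nhlh1* and -0.83 to 0.14 for *Atoh1*. With the scan day block the dose difference rests on the arrays of the later day, so these settings are not separate checks. The causes of these turns were not tested. *Pax6* stayed above 0 and *Zic1* below 0 under every alternative fitted.

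The 20 mg replicate numbers are shared by the sexes, and the main fit did not pair the samples by them. Replicate 1 minus 2 in females had a correlation of 0.087 with the same difference in males. This value cannot tell whether a number marks the same batch in both sexes. The scan days of the replicate numbers ran opposite ways in females and males, and female 20 mg replicate 2 stood apart. With the replicate number as a block (replicate block), 0 members were called over both sexes, in males, in females and for the interaction, as without it. Lone arrays at 2 mg, and lone 20 mg arrays when 1 was left out, are assumed to vary like the other groups. Dim signals limit *Cntn2* and the second *Pax6* probe, and on female 20 mg replicate 2 all but *Barhl1*, *Zic1*, *Zic2* and *Meis1*.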
